A study of Mus musculus with 13 samples.

Results

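The genes described here encode 9 receptors and junction proteins of endothelium, the cell layer that lines blood vessels: Pecam1, Cdh5, Kdr, Tek, Tie1, Eng, Icam2, Cldn5 and Flt1. The members were every probe set that the platform annotation assigns to 1 of these genes, 11 of the 12422 probe sets that are not hybridisation controls. Tie1 and Flt1 had 2 probe sets each and the other 7 genes had 1. Aortae came from c57/Bl6 mice that were held in constant darkness for 36 h after 2 weeks of 12 h of light and 12 h of dark. All groups shared this treatment. They differed in the circadian time (CT) of collection, and with it in the time spent in darkness, which was longer on the second day. Each of 12 pools held aortae of 6 mice. Collection was every 4 h, with the first day running from CT18 to CT38 and the second from CT42 to CT62, and each pool was measured on a short oligonucleotide array. The ages and sexes of the mice are not given in the labels. CT18 had 2 arrays, and the labels do not say whether both came from the same pool, so a gap between them may be technical or between pools. They were averaged and counted as 1 pool, so no time point was treated as having a replicate pool, and each circadian time was sampled on both days.

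Endothelial cells hold the vessel wall closed through junctions between neighbouring cells. VE-cadherin (Cdh5) builds the adherens junction, claudin 5 (Cldn5) builds tight junction strands, and PECAM-1 (Pecam1) and ICAM-2 (Icam2) are adhesion molecules that also serve the passage of leukocytes. Growth and quiescence of the layer are set by the receptors for vascular endothelial growth factor (Kdr and Flt1), by the angiopoietin receptor Tie2 (Tek) with its partner Tie1, and by endoglin (Eng), a co-receptor for ligands of the TGF-beta and BMP family. In the aorta this layer is a single sheet of cells on a thick muscular wall, so its transcripts are a small part of the RNA of the tissue.

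Values are array intensities on a linear scale, as deposited, and differences and amplitudes are on the log2 scale. Intensities below a floor of 36.7, the 20th percentile of positive values, were treated as not measured and set to the floor before log2 was taken. Of the 11 probe sets, 10 passed the filter on dim probe sets (a mean log2 of at least 5.60), and these covered all 9 genes. The exception was Flt1 98453_at, whose intensity was below 0 in all 12 pools, between -537 at CT22 and -170 at CT50, and which gave no level. The 10 that passed lay between the 48.6th percentile of mean intensity over all probe sets (Pecam1) and the 89.9th (Cdh5). Precision is limited by there being only 13 arrays. The arrays were alike in scale, with medians from 70.3 to 87.6, and each had 21.3% to 24.2% of its values at or below 0. The 2 CT18 arrays differed by a median of 0.193 (absolute log2) over the 7453 probe sets kept, and by more than 0.803 in 10% of them.

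Further endothelial genes were described beside the set, without a test of its label. Among these, Vwf, which encodes the von Willebrand factor of endothelium and platelets, averaged an intensity of 323 over the pools and Emcn (endomucin) 245. Of the 32 genes of the list of other endothelial genes on the array, 25 passed the filter and 7 did not. Over the whole series 5655 of 8251 genes passed, and these shares were not compared by a test. Mean intensities of those 25 ran from 29.5 for Gata2, under the floor of 36.7, to 3210 for Cav1, with Ednrb at 43.8 and Notch4 at 61.9. These 6 genes are named outside the rule for named genes, after their values were seen. Of 6 platelet markers listed, 3 were on the array, and Pf4 and Gp1bb were below the floor in 12 of 12 pools, while Gp9 averaged 138. Platelets also carry Pecam1 and Icam2, whose profiles had an r of 0.42 and -0.37 with Gp9 over the 12 pools. A platelet share in their values was not tested. Markers of other cells of the wall and of nearby tissue varied between pools. The summed intensity of 5 smooth muscle markers ran from 9067 to 14390 over the pools, that of 5 adipocyte markers from 23920 to 31890, of 8 skeletal muscle markers from 4988 to 23500, of 6 thymocyte markers from 173.5 to 3913 and of 3 atrial markers from 2589 to 8793, and that of the 9 endothelial genes from 1873 to 3117. In a tissue pool, fewer endothelial cells, less RNA per cell and a larger share of other tissue cannot be told apart. Endothelium of the aorta was not separated from that of nearby tissue in the pools.

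Whether these genes follow a 24-h rhythm was tested by fitting a cosine of that period to the 12 pools. By limma none of the 9 genes passed, with 0 of the 10 probe sets below an adjusted p of 0.05 against 0.349% of all 7453 probe sets. At an unadjusted p below 0.05 there were 3 of 10 (Cldn5, Icam2 and Eng), against 9.96% of all probe sets. The median amplitude of the 9 genes, each by its brightest probe set, was 0.257 (log2), and over all 5655 genes kept it was 0.176. Amplitude means how far the peak of the fitted curve stands above its mean. These medians describe the set and were not tested.

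**Figure D1:**
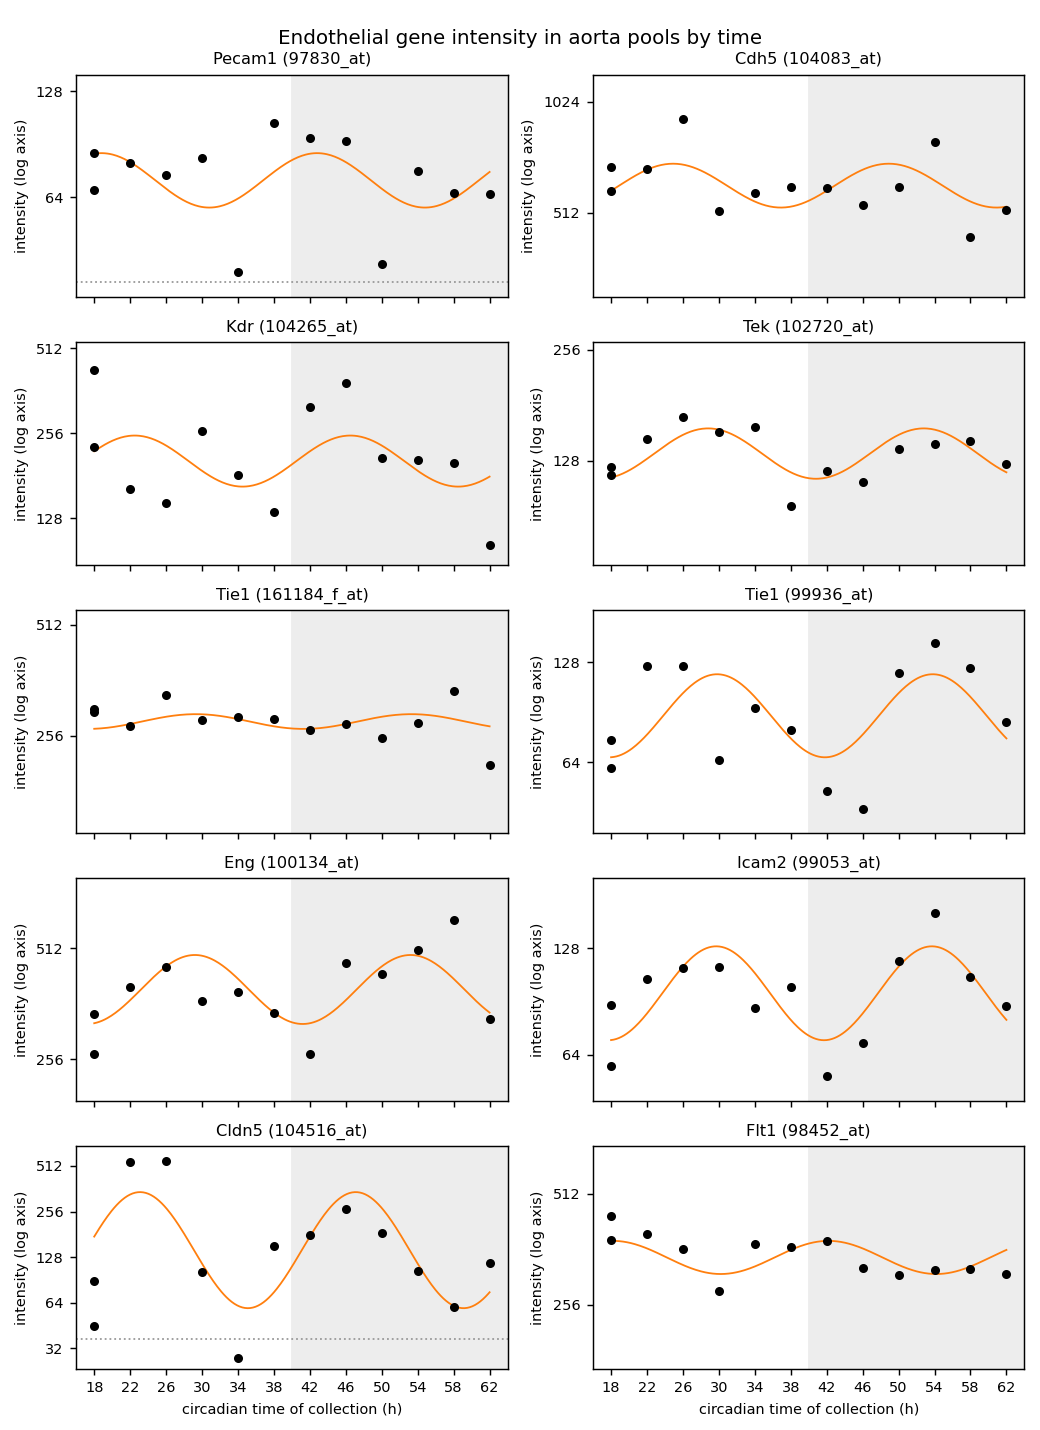
Intensity of the 10 endothelial probe sets kept, by circadian time of collection in h, on log axes. Points are arrays (2 at CT18, 1 at each other time), orange lines are fitted 24-h curves, the grey area is the second day and the dotted line, where in range, is the floor of 36.7. Cldn5 spans the widest range, from below the floor at CT34 to 552 at CT26, while Flt1 and the brighter Tie1 probe set lie close to flat lines.

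Among the junction genes, Cldn5 (104516_at) varied most. Its intensity was 89.6 and 45.0 on the CT18 arrays, 542 at CT22, 552 at CT26, 102 at CT30, 27.7 at CT34 and 152 at CT38. On the second day it was 178 at CT42, 267 at CT46, 185 at CT50, 103 at CT54, 60.4 at CT58 and 116 at CT62. The pools of circadian time 10 (CT34 and CT58) were the lowest of the 12, although CT18 array 2 lay below CT58, and on each day a pool of circadian time 22 or 2 was highest. CT26 was at least 15.0-fold above CT34, where Cldn5 was below the floor. Its standard deviation over the pools (1.20, log2) was at the 98.7th percentile of the probe sets kept.

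The fitted Cldn5 curve peaked at CT23.1 with an amplitude of 1.27 ± 0.29 (log2, SE, 12 pools), and the adjusted p was 0.192 (unadjusted 0.00311). At circadian time 22 the mean was 404 ± 194 and at circadian time 10 it was 44.1 ± 23.1 (SD, n = 2 pools each). These were the highest and the lowest mean of all circadian times, picked after the values were seen. The curves fitted to each day alone peaked at CT21.9 on the second day and CT23.7 on the first, with amplitudes of 0.96 and 1.66. The CT18 arrays of this probe set differed by 0.995 (array 2 minus array 1 was -0.995, log2), a gap larger than that of over 90% of probe sets. Over the 12 pools the Cldn5 profile had an r of 0.56 with the smooth muscle marker mean and -0.55 with the skeletal muscle marker mean. The smooth muscle list was highest at CT26 (0.34 above its mean, log2), the pool in which Cldn5 was highest. With the mean of the 5 smooth muscle markers as a covariate the amplitude was 1.08 and the adjusted p 0.473, with the adipocyte markers 1.21 and 0.383, and with skeletal muscle, thymocyte and atrial markers 1.14 and 0.485.

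The promoter of Cldn5 is shown because this gene had the largest amplitude of the set. It is RefSeq sequence of build GRCm38.p6, plus strand, chr16:18776597-18776896, from 250 bases before to 50 bases after the start of the gene. None of the motifs searched is in this window, so no base is in capitals.
Cldn5: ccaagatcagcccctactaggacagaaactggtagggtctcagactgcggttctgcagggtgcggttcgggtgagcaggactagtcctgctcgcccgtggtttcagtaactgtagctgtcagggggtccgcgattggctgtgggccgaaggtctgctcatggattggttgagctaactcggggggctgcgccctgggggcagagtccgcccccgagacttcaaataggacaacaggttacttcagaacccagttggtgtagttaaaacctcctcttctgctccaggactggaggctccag
The search covered both strands for the E-box of clock activators (CACGTG, in 7.15% of the 32851 RefSeq promoter windows of this length), its variant CACGTT (4.68%), the D-box of PAR bZIP factors (TTATGTAA, 0.938%), the ROR element (AGGTCA, 16.3%), the ETS site (AGGAAG, 35.4%) and the GATA site (AGATAA, 11.2%). Of the 9 genes, 6 had a window in the table (Kdr, Tek, Tie1, Eng, Cldn5 and Flt1). None of these 6 held either E-box form, the D-box or the ROR letters, and Tek held 1 GATA match.

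Cdh5 (104083_at) ranged from 440 at CT58 to 919 at CT26, with a median of 598. CT26 and CT54 (796) were the highest pools. The amplitude of 0.20 ± 0.10 with a peak at CT0.9 did not pass (adjusted p = 0.675). The Cdh5 profile had an r of -0.72 with the adipocyte marker mean and -0.56 with the skeletal muscle mean over the 12 pools. With covariates for skeletal muscle, thymocytes and atrium its amplitude was 0.0938 ± 0.168 and its peak moved to CT18.2. With the adipocyte markers as a covariate the amplitude was 0.0896 ± 0.0905 and the peak CT19.2. Both amplitudes are below their SE, so these peaks are poorly set.

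Pecam1 (97830_at) was dim, with a lowest pool of 39.2 at CT34, a median of 76.0 and a highest pool of 104 at CT38. CT34 and CT50 (41.5) lay just above the floor and the other 10 pools between 65.3 and 104. Adjacent pools thus held the lowest and the highest value, and the 24-h curve (amplitude 0.26 ± 0.18, peak CT18.8) had an adjusted p of 0.774.

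Icam2 (99053_at), whose protein binds the leukocyte integrin LFA-1, had an intensity of 88.5 and 59.7 on the CT18 arrays, 105 at CT22, 113 at CT26, 113 at CT30, 86.8 at CT34 and 99.9 at CT38. On the second day it was 56.0 at CT42, 69.3 at CT46, 118 at CT50, 162 at CT54, 106 at CT58 and 88.2 at CT62. The pools of circadian time 6 averaged 137 ± 34.2 and those of circadian time 18 averaged 65.0 ± 12.8 (SD, n = 2 pools each). These times had the highest and the lowest mean and were picked after the values were seen. The amplitude was 0.44 ± 0.13 with a peak at CT5.7, and the adjusted p was 0.375 (unadjusted 0.0165). The curve of the second day was the taller, with an amplitude of 0.68 against 0.24 on the first day, and the test of a difference in rhythm between the days had an adjusted p of 0.760. With the adipocyte markers as a covariate the amplitude was 0.36 and the unadjusted p 0.0655. Icam2 lies on chromosome 11 close to Pecam1, with 2 protein-coding genes between them in the RefSeq table, yet their profiles had an r of -0.23 over the 12 pools.

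Among the receptors, endoglin had the lowest unadjusted p. Eng (100134_at) had an intensity of 340 and 264 on the CT18 arrays, 402 at CT22, 454 at CT26, 368 at CT30, 390 at CT34 and 342 at CT38. On the second day it was 264 at CT42, 466 at CT46, 436 at CT50, 507 at CT54, 610 at CT58 and 329 at CT62. The pools of circadian times 18 (283 ± 26.9) and 14 (336 ± 9.30) were the lowest on average, and those of circadian time 10 the highest (500 ± 155, SD, n = 2 pools each). The amplitude of 0.31 ± 0.11 with a peak at CT5.2 had an adjusted p of 0.467 (unadjusted 0.0376). With covariates for skeletal muscle, thymocytes and atrium the amplitude was 0.57 and the unadjusted p 0.0781. CT58, the highest Eng pool, was also the highest in summed adipocyte markers (31890). By the mean centred log2 value of these markers CT62 was highest (0.31, with CT58 at 0.25), and Eng was 329 at CT62. Over the pools the Eng profile had an r of -0.13 with the adipocyte marker mean. With the adipocyte markers as a covariate the Eng amplitude was 0.44, with a limma p of 0.0197 (adjusted 0.443). The part of fat tissue in the Eng values was not tested. Without CT58 the peak was at CT3.7 and the adjusted p 0.465.

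The Eng promoter is shown as the window that holds ETS matches in the receptor with the lowest p. ETS factors are transcription factors known for their part in endothelial gene expression. The window is RefSeq GRCm38.p6, plus strand, chr2:32646345-32646644, and capitals mark the letters AGGAAG or their reverse complement CTTCCT.
Eng: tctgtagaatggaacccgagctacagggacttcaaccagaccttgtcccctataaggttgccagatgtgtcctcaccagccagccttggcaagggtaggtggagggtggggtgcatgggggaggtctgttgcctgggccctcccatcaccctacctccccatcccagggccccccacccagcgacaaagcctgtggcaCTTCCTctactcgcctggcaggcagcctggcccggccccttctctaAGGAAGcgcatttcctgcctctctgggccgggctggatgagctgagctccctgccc
These 2 matches lie 52 and 6 bases before the start. Tie1 and Flt1 also held 2 matches each, and Kdr, Tek and Cldn5 held 0. Over all 32851 windows 35.4% held at least 1 such match, and these shares were not compared by a test. The Kdr and Flt1 windows lie inside the RefSeq span of the gene, and the Tek window has the gene start within its first 250 bases. A match is a description of the letters and not of a site in use.

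The pair of receptors for vascular endothelial growth factor were unlike in their spread. Kdr (104265_at), the main signalling receptor, ranged from 103 at CT62 to 385 at CT46, a 3.74-fold range, with a median of 203. The pools of circadian time 18 averaged 323 ± 7.69 and those of circadian time 14 averaged 119 ± 22.2 (SD, n = 2 pools each). The CT18 arrays measured 228 and 429, so the small SD at circadian time 18 rests on their average. At circadian time 22 the pools differed, with 385 at CT46 and 162 at CT22. Its amplitude was 0.30 ± 0.21 with a peak at CT22.5 (adjusted p = 0.772), and the CT18 arrays differed by 0.911 (array 2 minus array 1, log2), also more than in 90% of probe sets. Flt1 (98452_at), a receptor that binds the same growth factor and largely holds it back from Kdr, ranged from 279 at CT30 to 415 at CT18, a 1.49-fold range. Its amplitude was 0.15 ± 0.07 with a peak at CT18.2 (adjusted p = 0.648), and its standard deviation was at the 15.6th percentile of the probe sets kept.

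The Tie receptors had fitted peaks close to each other over both days but did not pass. Peaks fitted to each day alone lay 3.9 h apart for Tek. For Tie1 they lay 4.6 h (161184_f_at) and 7.0 h (99936_at) apart. Tek (102720_at) ranged from 96.3 at CT38 to 168 at CT26, with a median of 140. Its pools averaged 153 ± 21.4 at circadian time 2, 147 ± 7.53 at 6 and 151 ± 8.95 at 10. They averaged 111 ± 20.5 at circadian time 14 and 120 ± 0.147 at 18 (SD, n = 2 pools each). At circadian time 22 the pools differed, with 146 at CT22 and 112 at CT46. The amplitude of Tek was 0.23 ± 0.10 with a peak at CT4.8 and an adjusted p of 0.615, and with covariates for skeletal muscle, thymocytes and atrium the peak moved to CT11.3. The probe sets of Tie1 disagreed. The brighter, 161184_f_at, had no accession in the annotation table and a name ending that marks a family of like sequences. It ranged from 214 at CT62 to 337 at CT58 with an amplitude of 0.07 ± 0.08 (adjusted p = 0.922). This amplitude is below its SE, so the fitted peak (CT5.3) is poorly set. That peak was CT2.2 without CT58 and CT10.3 without CT62. The dimmer, 99936_at, ranged from 46.2 at CT46 to 147 at CT54 with an amplitude of 0.42 ± 0.19 and a fitted peak at CT5.8 (adjusted p = 0.633). Over the 12 pools these probe sets had an r of 0.20, so the profile of Tie1 depends on the probe set.

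**Figure D2:**
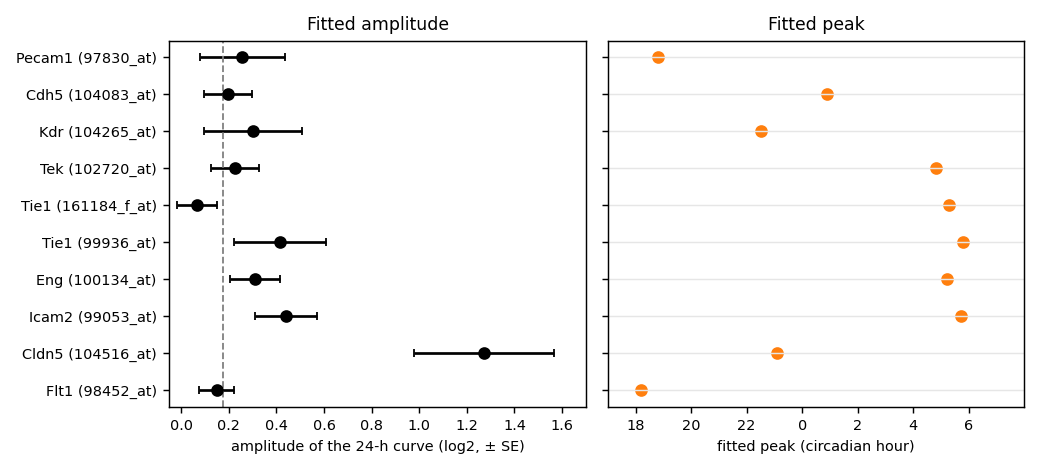
Fitted amplitude of the 24-h curve (left, log2, bars are SE over 12 pools, dashed line is the median of all genes kept) and fitted circadian hour of the peak (right) for the 10 endothelial probe sets. Cldn5 stands at 1.27 and all others at or below 0.44. The peaks of Tek, Eng, Icam2 and both Tie1 probe sets lie between CT4.8 and CT5.8, but no amplitude passed the adjusted test. The amplitude of Tie1 161184_f_at is below its SE, so its peak is poorly set. For these probe sets, peaks fitted to each day alone (not drawn) lay from 2.5 h (Icam2) to 7.0 h (Tie1 99936_at) apart.

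The 9 genes did not share 1 profile across the pools. Over the 36 pairs of genes the median r was 0.10, with 24 pairs above 0 and 2 above 0.5. The points of each r are the same 12 pools, which share arrays and tissue mixture, so these values are descriptions. Eng and Icam2 had the highest r (0.63, Spearman's rho 0.55, and 0.52 without the 2 pools farthest from the Eng median). Cdh5 and Cldn5 had an r of 0.51 (rho 0.48), which was 0.09 without the 2 pools farthest from the Cdh5 median. Pecam1 and Tek had the lowest (-0.52, rho -0.50). By the mean centred log2 value of the 9 genes, CT26 was highest (0.36) and CT34 (-0.31) and CT62 (-0.29) were lowest. At CT26, 8 of 9 genes were above their own mean, at CT34 3 of 9 and at CT62 0 of 9. Such counts are not given for all genes kept, so they are not read as a trait of this set. Over all probe sets, centring arrays on their medians raised CT26 by 0.10, CT34 by 0.03 and CT62 by 0.10 (log2). CT26 was the highest pool in summed smooth muscle markers (14390) and fibroblast markers (20120). CT34 was the highest in summed skeletal muscle markers (23500), and CT62 was close to the lowest in smooth muscle markers (9382). By mean centred log2 value the adipocyte markers were highest at CT62 (0.31), and the smooth muscle markers were above their mean at CT34 (0.11). Over the 12 pools the mean profile of the 9 genes had an r of -0.64 with the adipocyte marker mean. It was -0.55 with skeletal muscle, 0.51 with smooth muscle and 0.40 with fibroblasts, and from -0.29 (atrium) to 0.30 (B cells) with the other lists. The part of tissue mixture in the endothelial values at these pools was not tested.

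**Figure D3:**
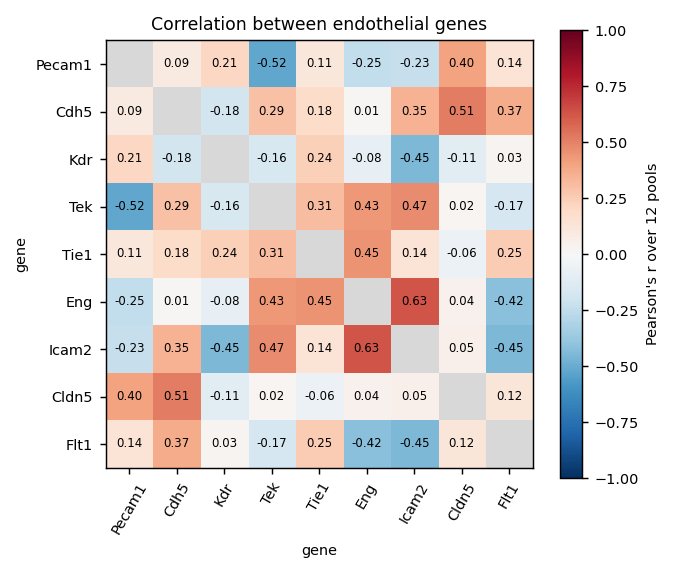
Pearson's r between the log2 profiles of the 9 endothelial genes over 12 pools, each gene by its brightest probe set. Red is positive and blue negative. Eng with Icam2 (0.63) and Cdh5 with Cldn5 (0.51) are the only pairs above 0.5, and Kdr and Flt1 stand at 0.03.

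The second day was compared with the first to see whether levels drifted with longer time in darkness. None of the 10 probe sets passed by limma, against 0% of all 7453. At an unadjusted p below 0.05 there were also 0 of 10, where the whole table had 3.23% higher and 4.31% lower on the second day. Flt1 averaged 8.35 ± 0.11 on the second day and 8.50 ± 0.20 on the first (log2, SD, n = 6 pools each), a difference of -0.15 ± 0.10 (SE, adjusted p = 0.714), and the second-day pool was the higher in 1 of 6 pairs 24 h apart. Cdh5 averaged 9.16 ± 0.29 on the second day and 9.33 ± 0.28 on the first, a difference of -0.17 ± 0.14 (adjusted p = 0.797). Kdr (0.20 ± 0.30) and Eng (0.17 ± 0.15) had differences above 0, and the other 5 genes had differences from -0.13 (Cldn5) to -0.05 (Icam2). The median difference of the 9 genes was -0.09, and over all genes kept it was -0.03. Standard errors of these differences ran from 0.10 for Flt1 to 0.43 for Cldn5.

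**Figure D4:**
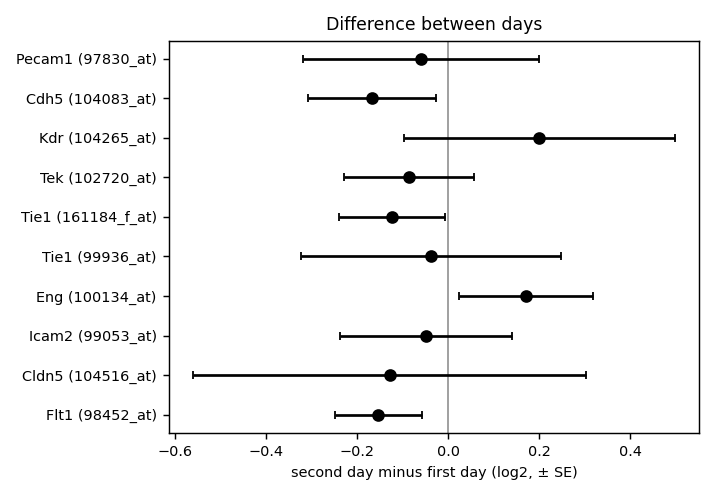
Second day minus first day (log2, with the 24-h curve as a covariate) for the 10 endothelial probe sets kept. Points are fitted differences and bars are SE. Kdr and Eng lie right of 0 and the other 8 probe sets left of it, all within 0.20 of 0, and none passed the adjusted test.

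The difference in rhythm between the days was tested in the same way, with 0 of 10 probe sets passing, against 0% of all. At an unadjusted p below 0.05 there was 1, against 6.98% of all probe sets. This was Tie1 99936_at, with an adjusted p of 0.681 by limma (unadjusted 0.0311). Its second-day curve peaked at CT7.2 with an amplitude of 0.85, and its first-day curve at CT0.2 with one of 0.31.

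Genes that work with these receptors were followed as 6 lists with 105 genes, of which 88 were on the array and 66 passed the filter. None of the 66 passed for a 24-h rhythm, and 10 had an unadjusted p below 0.05, beside the 9.96% of all probe sets. Their median amplitude was 0.166, beside 0.176 over all genes kept. In the TGF-beta and BMP list around endoglin, 0 of 13 passed. Id1, a target gene of BMP receptor signalling, had the smallest p, with an amplitude of 0.61 ± 0.13 and its peak at CT5.9 (adjusted p = 0.140), and it ranged from 257 at CT42 to 954 at CT26. Eng, the co-receptor of that pathway, was also lowest at CT42. In the list of VEGF ligands and co-receptors, 0 of 7 passed, and Nrp1, neuropilin 1, had 0.21 ± 0.08 and CT5.7 (adjusted p = 0.559). In the list of angiopoietins and Tie partners, 0 of 3 passed. Ptprb, the phosphatase that acts on Tie2 and VE-cadherin, had 0.70 ± 0.21 and CT7.7 (adjusted p = 0.376), with its lowest pool below the floor.

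Among 11 junction partners 0 passed. F11r (JAM-A), an adhesion molecule of tight junctions, had an amplitude of 0.25 ± 0.06 (peak CT1.6) (adjusted p = 0.188), ranging from 288 at CT62 to 436 at CT26, the same highest pool as Cldn5 and Cdh5. Of 7 leukocyte adhesion genes 0 passed, and Glycam1, a ligand of L-selectin, had 1.06 ± 0.31 and CT23.2 (adjusted p = 0.349) with a mean intensity of only 49.2. Of the 25 other endothelial genes 0 passed, and Efnb2 (ephrin B2), a marker of arterial endothelium, had 0.68 ± 0.20 and CT4.4 (adjusted p = 0.374), with its lowest pool (CT38) below the floor. Between the days 0 of the 66 passed, against 0% of all probe sets. At an unadjusted p below 0.05, 1 was higher and 1 lower on the second day, against 3.23% and 4.31% of all probe sets. The higher was Ctnna1 (alpha-catenin, 0.34 ± 0.11) and the lower S1pr1 (a sphingosine 1-phosphate receptor, -0.44 ± 0.18). These 2 are named after their values were seen.

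The mean profile of the 9 genes followed Cldn5 most closely (r = 0.83), since that gene varied most, and Flt1 least (r = 0.10). Among the 5646 other genes kept, those most like this mean over the 12 pools were Lyrm2 (r = 0.87), Sbds, which acts in ribosome maturation (0.85), Denn2b (0.83), Efhd1, a mitochondrial calcium-binding protein (0.83), and Mau2, a subunit of the cohesin loader (0.82). Their fitted peaks ran from CT23.4 to CT1.1, and none passed for a 24-h rhythm (adjusted p from 0.388 to 0.640).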

How the data were processed

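Per the labels, probe made from total RNA of pooled aortae was hybridised to arrays. The deposited intensities were used as given. The sources used here do not give the software or scaling behind them. Their mean after trimming 2% at each end was 200.2 on every array. Of 12488 probe sets, 66 hybridisation controls were left out. The platform annotation paired 10833 of the rest with 1 gene. Intensities were floored at 36.7, taken as log2, and averaged for CT18. Probe sets at or above the 40th percentile of the mean were kept (7453). Probe sets of a gene were represented in lists by the brightest. With limma 3.58.1 in R 4.3.3, a 24-h cosine and sine (9 residual degrees of freedom), a day term (8) and a day-by-rhythm term (6) were tested with moderated statistics and an intensity trend, adjusted by Benjamini-Hochberg over all probe sets kept (threshold 0.05). P-values rest on how far pools scatter around the curve, a spread that may be technical. Members, lists and tests were chosen with earlier results of these data known. Genes named are all members, per list those past the threshold or the 1 with the smallest p, and the 5 genes most like the mean of the members. The fits were tested on simulated data. Alternatives changed floor, filter, normalization, variance model, scale, covariates and pools.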

Additional observations from a re-analysis of the deposited data

Results flagged for a closer look

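In each of 20 sets of 6 pools (10 probe sets on each day) the lowest and the highest pool were compared with the rest, and 3 pools stood far from the others, where chance gives about 1 in 20 sets. On the second day Flt1 98452_at measured 382 at CT42, against 308 to 323 in the other 5 pools (gap over range 0.770). On the first day the same probe set measured 279 at CT30, against 362 to 415 in the others (0.662). CT42 is at circadian time 18, beside the fitted Flt1 peak (CT18.2), and CT30 is at circadian time 6, near the low point of that curve. On the first day Pecam1 97830_at measured 39.2 at CT34, against 74.0 to 104 in the others (0.652). The cause was not tested.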

How the results depend on the processing

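No paired analysis was possible because the labels give every time point the replicate number 1 and only CT18 a second, so replicate numbers pair no samples. For the day comparison, pools 24 h apart were instead paired by their time, and 0 endothelial genes passed. The count of endothelial genes past the threshold was 0 in all 28 alternatives for the 24-h rhythm, all 27 for the day and all 26 for the difference in rhythm between days. Icam2, Pecam1 and Tie1 99936_at were not kept by the filter at the 60th percentile. Over all probe sets the count for the 24-h rhythm was 26, with 4 to 39 over the alternatives (8 without CT54 and 39 without CT30, the range over fits lacking 1 time point or array), and that for the day was 0, with 0 to 2. The lowest adjusted p of Cldn5 was 0.0731, without the CT18 pool, and its amplitude ran from 1.08 to 1.44. With covariates for skeletal muscle, thymocytes and atrium the peaks of Cdh5 (amplitude 0.0938, SE 0.168) and Tek (0.193, SE 0.176) moved by more than 6 h. No day difference passed, and several turned from below to above 0. Centring on medians, which shifted pools by -0.16 to 0.16, gave 0.0308 for Icam2, 0.0197 for Pecam1 and 0.0421 for Tie1 99936_at, and quantile normalization gave 0.0227, 0.0235 and 0.0406. With adipocyte markers as a covariate the differences were 0.126 for Icam2, 0.172 for Pecam1, 0.0927 for Tie1 99936_at and 0.0403 for Cdh5, and with smooth muscle markers 0.00367 for Cldn5. On linear intensities they were 1.17 for Icam2 and 2.55 for Tie1 99936_at, in intensity units, and with the higher floor 0.0753 for Tie1 99936_at. Without 1 time point or array they ran from -0.507 to 0.114 for Cldn5, -0.136 to 0.0287 for Icam2, -0.240 to 0.109 for Pecam1 and -0.256 to 0.145 for Tie1 99936_at. The cause was not tested. Signal close to the floor limits Pecam1, Icam2, Tie1 99936_at and Cldn5.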
